A study of Mus musculus with 40 samples.

Results

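The 10 genes described here encode the 3 transcriptional coactivators of the PGC1 family (Ppargc1a, Ppargc1b and Pprc1) and 7 nuclear-encoded factors of mitochondrial DNA (mtDNA) expression (Tfam, Tfb1m, Tfb2m, Polrmt, Ssbp1, Nrf1 and Gabpa). They were taken by gene symbol from 3 tables of raw read counts of mouse kidney RNA, which held 55862, 55866 and 55866 gene names. All 10 were found on a single line of each table, and all 10 passed the filter on low counts in each table.

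All kidneys came from wild-type C57bl/6 mice, and every group had 4 libraries. In ischaemia-reperfusion injury (IRI) the blood supply of the kidney is stopped and then restored. In the temporal table, unoperated kidneys (Control) stood beside those collected 6, 24, 48 and 72 h after reperfusion. The therapy table held the same 4 Control libraries, kidneys with injury and no cells (AKI, labelled as taken 6 h after reperfusion), and injured kidneys of mice given mesenchymal stromal cells (MSCs) of human origin, either bone marrow (BM-MSC) or umbilical cord (UC-MSC). The cells were injected right after reperfusion under the same anaesthesia, and the labels give neither the time at which the BM-MSC and UC-MSC kidneys were collected nor the number of cells. The sham table held its own unoperated kidneys (Sham control) and those collected a day, 24 h, after an operation that left out ischaemia (Sham 24 h). The AKI libraries carry the library names and the time of the IRI 6 h libraries, but their counts differ. No label states the age of the animals or whether the libraries of a group came from separate animals, so p-values measure only the spread between these libraries, which may be technical.

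PGC1 coactivators bind transcription factors rather than DNA. PGC1alpha (Ppargc1a) is the inducible master regulator of mitochondrial biogenesis and is abundant in the energy-demanding tubules of the kidney. PGC1beta (Ppargc1b) is its closest homologue, and PRC (Pprc1) is a serum-inducible relative that responds early to growth and stress signals. The coactivators work through nuclear respiratory factor 1 (Nrf1) and the ETS factor GABP (whose DNA-binding alpha subunit is encoded by Gabpa, also called NRF-2), which act on genes of the mtDNA machinery. In the mitochondrion, TFAM packages mtDNA and bends its promoters, TFB2M opens them together with the RNA polymerase POLRMT, and TFB1M methylates the ribosomal RNA of the small mitochondrial subunit. SSBP1 coats single-stranded mtDNA during replication.

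Promoter sequence was taken from RefSeq on the GRCm38.p6 build, in which 9 of the 10 genes had an entry. The files themselves used the mm39 build, so the coordinates below belong to GRCm38.p6 only. The 100 bases before the annotated start are printed for the 2 coactivators that changed in opposite directions after injury and for 4 factors that carry an ETS core or changed in opposite directions. They run 5′ to 3′ on the gene's strand, with matches in capitals.
Ppargc1a, chr5:51567726-51567825, minus strand: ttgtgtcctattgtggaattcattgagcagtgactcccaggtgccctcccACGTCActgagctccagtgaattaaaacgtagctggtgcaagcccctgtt
Pprc1, chr19:46056439-46056538, plus strand: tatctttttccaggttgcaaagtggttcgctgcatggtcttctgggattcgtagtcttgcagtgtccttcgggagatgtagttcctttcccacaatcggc
Tfam, chr10:71238045-71238144, minus strand: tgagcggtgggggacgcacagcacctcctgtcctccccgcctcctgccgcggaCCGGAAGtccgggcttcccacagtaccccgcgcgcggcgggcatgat
Ssbp1, chr6:40471368-40471467, plus strand: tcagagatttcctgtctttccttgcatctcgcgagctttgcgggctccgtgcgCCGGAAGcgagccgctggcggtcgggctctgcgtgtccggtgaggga
Polrmt, chr10:79746582-79746681, minus strand: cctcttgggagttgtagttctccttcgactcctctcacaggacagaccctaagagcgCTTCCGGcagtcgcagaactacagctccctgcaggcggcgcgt
Gabpa, chr16:84835024-84835123, plus strand: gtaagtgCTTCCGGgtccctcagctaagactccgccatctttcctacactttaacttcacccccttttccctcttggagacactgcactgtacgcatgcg

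Capitals mark 2 of the 3 motifs searched on both strands, from 250 bases before to 50 bases after the start, and show the reverse complement where the match is on the other strand (Ppargc1a, Polrmt and Gabpa). The ETS core CCGGAAG, the letters that GABP-type factors read, begins 47 bases before the start in Tfam and in Ssbp1, 43 in Polrmt and 93 in Gabpa. Among all 32851 promoters of this length, 8.86% held it. The cyclic AMP response element core TGACGT, the binding letters of CREB, begins 50 bases before the start of Ppargc1a, and 7.51% of all promoters held it. The NRF1 motif GCGCANGCG was found in Polrmt, as 2 overlapping matches next to the start, and in Tfb2m, 12 bases after the start, and in 6.25% of all promoters. No match of these 3 motifs overlapped a match of another, and none was found in the windows of Pprc1, Tfb1m or Nrf1. These matches describe the letters and show no binding.

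Total counts per library, over the gene names kept, were 14983957 to 16406595 in Control and 13315376 to 17558674 at 6 h, 6728413 to 13581335 at 24 h, 5451914 to 7061129 at 48 h and 4650019 to 5376491 at 72 h. They were 12985896 to 18494145 in the therapy table and 26577829 to 37055701 in the sham table. Left out were names on several lines and, in the temporal and therapy tables, 74 names whose Control counts differed between the tables, among them 9 of the 13 mtDNA-encoded mRNAs. Those 74 held 16.3 to 19.3% of the counts on names with a single line in Control and 38.5 to 41.6% at 72 h, so the totals understate the libraries, and percentages below are of the counts kept. Values are read counts scaled to library size by the TMM method (CPM), given with the SD over 4 libraries. Changes are log2 fold changes with their standard error from edgeR's quasi-likelihood test, two-sided and adjusted by Benjamini-Hochberg over all genes of a table, and called at an adjusted p under 0.05. Names on several lines show that the temporal and therapy tables were each joined from parts, Control and 6 h in one and 24, 48 and 72 h in the other for the temporal table, AKI in one and Control, BM-MSC and UC-MSC in the other for the therapy table. In comparisons of 24, 48 or 72 h with Control, and in all those with AKI, the group cannot be told apart from the part. Late libraries stood apart in composition. The single name Cep85 took 0.0106 to 0.0135% of counts in Control and 9.62 to 12.9% at 72 h, and mitochondrial ribosomal RNA took 0.180 to 0.220% in Control and 2.54 to 4.33% at 48 h. The labels name kidney, and the 15 proximal tubule markers were all detected in Control, where their CPM summed to 21368 to 25687. That sum was 3724 to 9927 at 6 h, 2255 to 4263 at 24 h, 1365 to 2569 at 48 h and 1439 to 1564 at 72 h. In bulk tissue, fewer tubule cells and less RNA per cell cannot be told apart, and the part of these shifts in the results below was not tested. Each table was scaled separately, so levels are compared within a table.

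The 3 coactivators took 3 different courses after reperfusion. Ppargc1a fell from 24 h on and was at its lowest at 72 h, Pprc1 rose at every time, and Ppargc1b was lowest at 48 h. Ppargc1a measured 77.5, 75.1, 75.9 and 73.2 CPM in the Control libraries and 90.2, 83.3, 109 and 101 CPM at 6 h. All 4 libraries at 6 h lay above Control, but the change did not pass the test (log2 fold change 0.34 ± 0.22, adjusted p = 0.342) except in a fit of these 2 groups alone (0.44, adjusted p = 0.00456). The values were 24.3, 20.1, 26.0 and 22.7 CPM at 24 h, 17.1, 30.8, 11.0 and 13.7 CPM at 48 h and 9.16, 15.5, 15.8 and 15.9 CPM at 72 h. Each of these 12 libraries lay below every Control library. Ppargc1a thus fell 3.23-fold at 24 h (log2 fold change -1.69 ± 0.23, adjusted p = 3.10e-06), 4.17-fold at 48 h (log2 fold change -2.06 ± 0.24, adjusted p = 1.69e-07) and 5.34-fold at 72 h (log2 fold change -2.42 ± 0.25, adjusted p = 1.98e-08). By mean level its order was 6 h, Control, 24 h, 48 h and 72 h, and the ranges of 24, 48 and 72 h overlapped from one time to the next.

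Pprc1 ran against this course. Its transcript measured 11.7, 12.2, 14.6 and 13.6 CPM in Control, 37.8, 30.4, 26.6 and 30.1 CPM at 6 h and 49.4, 52.9, 46.7 and 51.5 CPM at 24 h. Both times lay wholly above Control. Pprc1 rose 2.39-fold at 6 h (log2 fold change 1.26 ± 0.28, adjusted p = 0.0022) and 3.85-fold at 24 h (log2 fold change 1.94 ± 0.29, adjusted p = 7.24e-06). Later libraries were more scattered, with 63.0, 34.9, 52.0 and 25.9 CPM at 48 h and 42.1, 14.5, 48.5 and 35.2 CPM at 72 h. Library 2 of 72 h lay within the Control range, and the other late libraries lay above it. Pprc1 was still called at 48 h (log2 fold change 1.76 ± 0.29, adjusted p = 1.77e-05) and at 72 h (log2 fold change 1.43 ± 0.29, adjusted p = 1.93e-04).

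Ppargc1b was the least abundant coactivator by count. It measured 6.98, 8.76, 10.8 and 8.90 CPM in Control and 0.779, 0.917, 1.05 and 1.38 CPM at 48 h, where each library held only 5 to 8 counts. Every injured library of the temporal table lay below every Control library. The fall passed the test at 48 h (log2 fold change -3.09 ± 0.49, adjusted p = 1.28e-05) and not at 6 h (log2 fold change -0.69 ± 0.43, adjusted p = 0.322), 24 h (log2 fold change -1.05 ± 0.44, adjusted p = 0.0579) or 72 h (log2 fold change -0.86 ± 0.44, adjusted p = 0.103). At 24 h Ppargc1b was called by DESeq2 (-1.07, adjusted p = 0.0172) and without library 1 of 24 h (-1.34, adjusted p = 0.0375). Fits of only the 2 groups compared called it lower at 6 h (-0.60, adjusted p = 0.0234) and at 24 h (-1.09, adjusted p = 0.00449). Between 24 and 48 h Ppargc1b fell again (log2 fold change -2.03 ± 0.48, adjusted p = 0.00391), a call lost in a fit of these 2 groups alone (-1.995, adjusted p = 0.0567). Its mean at 72 h, 4.88 ± 1.35 CPM, was back near that of 24 h, 4.29 ± 2.07 CPM.

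**Figure D1:**
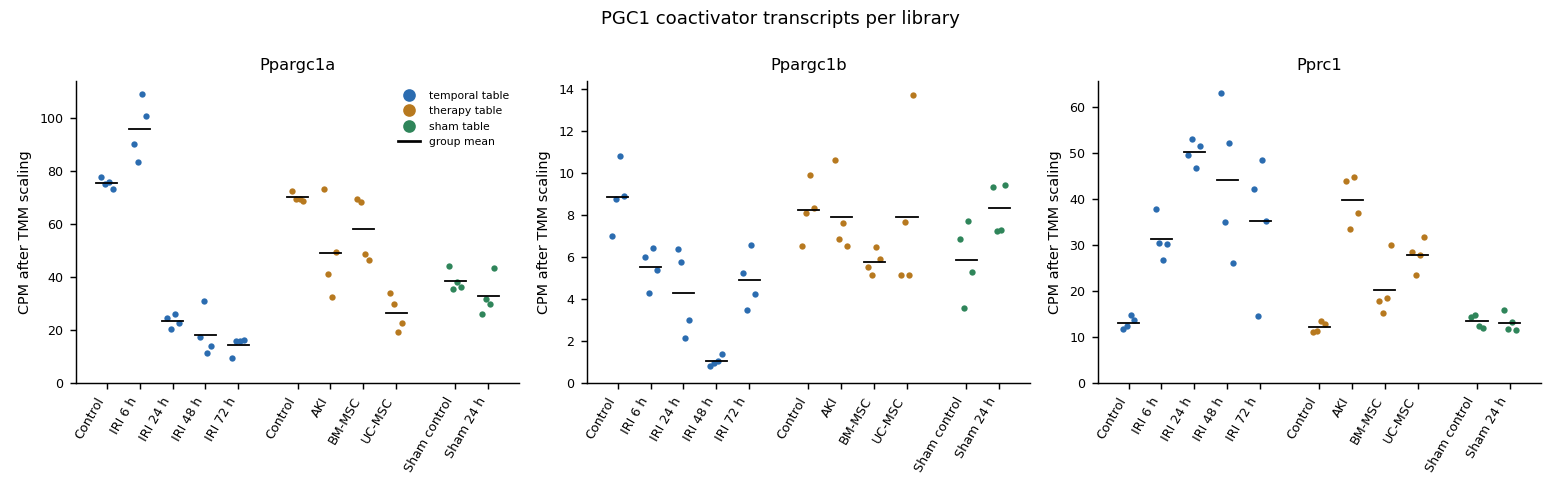
CPM after TMM scaling of the 3 PGC1 coactivators in every library (points, coloured by table), with the group mean as a bar. Ppargc1a lies below every Control library from 24 h on (9.16 to 30.8 CPM against 73.2 to 77.5 CPM) while Pprc1 reaches 46.7 to 52.9 CPM at 24 h against 11.7 to 14.6 CPM in Control.

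Levels were also divided by all annotated exon bases of a gene, pooled over its transcripts, from the GENCODE annotation of GRCm38. Pooled bases (8360 for Ssbp1, 2804 for Tfb2m) can exceed the length of the transcript expressed and understate a level, so the order of genes is approximate. Control levels of Ppargc1a (11.4 ± 0.272 CPM per kb) were above those of Ppargc1b (2.22 ± 0.392) and Pprc1 (2.07 ± 0.213). On the same scale Tfam stood at 15.4 ± 0.570, Tfb2m at 15.7 ± 0.632, Polrmt at 11.5 ± 0.622, Gabpa at 9.07 ± 0.878, Ssbp1 at 2.92 ± 0.261, Nrf1 at 2.12 ± 0.238 and Tfb1m at 1.86 ± 0.230. In Sham control Ppargc1a stood at 5.81 ± 0.609, Pprc1 at 2.12 ± 0.228, Ppargc1b at 1.46 ± 0.459 and Polrmt at 9.998 ± 0.952. Ppargc1a was thus the most abundant coactivator on this scale in both sets of unoperated kidneys.

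Counted over all 10 genes, 1 rose and 1 fell at 6 h, when 10.3% of the 16638 genes tested rose and 8.53% fell. At 24 h, 2 rose and 4 fell, beside 21.8% and 20.2% of all genes. At 48 h, 3 rose and 5 fell, beside 26.9% and 26.8%. At 72 h, 3 rose and 4 fell, beside 26.7% and 29.6%. The median log2 fold change of the 10 genes was -0.35 at 6 h, -0.70 at 24 h, -0.72 at 48 h and -0.81 at 72 h, where the median of all genes tested was -0.07, 0.05, 0.01 and -0.05. In the fit of all groups, calls were few at 6 h and many from 24 h on, among these genes as among all genes. That fit took 1 spread per gene over all groups, although late libraries were less alike. Between libraries of a group, Pearson r of log2 CPM was 0.987 to 0.991 in Control and 0.957 to 0.992 at 6 h. At 72 h it was 0.794 to 0.822. A fit of Control and 6 h alone called 3 of the 10 genes higher and 6 lower. The count at 6 h thus depended on the fit, and the share of all genes in that smaller fit is not given here.

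Of the 3 proteins that act at mtDNA promoters, Tfam and Tfb2m fell after injury and Polrmt did not pass the test. Tfam, the packaging and promoter factor, measured 67.4, 71.5, 65.7 and 69.6 CPM in Control and 36.4, 30.3, 32.6 and 32.6 CPM at 24 h. At 48 h it measured 39.6, 22.2, 33.5 and 33.2 CPM and at 72 h 40.1, 33.9, 34.1 and 11.5 CPM. The injured libraries, those of 6 h included, all lay below Control. Tfam fell at 24 h (log2 fold change -1.06 ± 0.26, adjusted p = 0.00177), 48 h (log2 fold change -1.09 ± 0.26, adjusted p = 0.00105) and 72 h (log2 fold change -1.19 ± 0.26, adjusted p = 4.66e-04), by a like amount each time, and did not pass at 6 h (31.8 to 54.5 CPM, adjusted p = 0.103).

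Tfb2m, which melts the promoter, was the only factor called at 6 h in the fit of all groups. It measured 45.0, 41.4, 44.7 and 44.9 CPM in Control and 19.1, 27.8, 26.3 and 29.2 CPM at 6 h, ranges far apart (log2 fold change -0.78 ± 0.25, adjusted p = 0.0332). That early call was close to the threshold and was lost in 7 of 8 fits without 1 library (all but library 4 of 6 h), with a log2 fold change of -0.82 to -0.66 and an adjusted p of 0.0589 to 0.122. At 24 h Tfb2m measured 17.2, 17.7, 17.98 and 19.3 CPM and had fallen 2.44-fold (log2 fold change -1.29 ± 0.26, adjusted p = 3.00e-04). It stayed below Control in every library at 48 h (log2 fold change -1.05 ± 0.26, adjusted p = 0.00158) and 72 h (log2 fold change -1.26 ± 0.26, adjusted p = 3.10e-04).

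Polrmt, the polymerase that both of them serve, was not called against Control at any time in the fit of all groups. Its libraries measured 50.6, 56.8, 55.7 and 52.1 CPM in Control, 46.9, 38.1, 37.6 and 40.2 CPM at 24 h and 80.7, 59.8, 62.6 and 38.9 CPM at 48 h. The 6 and 24 h libraries lay below Control, while those of 48 h spread over both sides of it. Polrmt rose from 24 to 48 h (log2 fold change 0.57 ± 0.20, adjusted p = 0.042), a call that stood only in the fit without library 4 of 48 h among the 8 fits without 1 library (in the others, log2 fold change 0.39 to 0.65, adjusted p 0.0505 to 0.170).

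Tfb1m, the rRNA methyltransferase, had the fewest counts of the factors, and its ranges overlapped Control at every time. At 48 h its libraries measured 9.35, 1.10, 3.55 and 4.84 CPM and at 72 h 8.72, 0, 3.39 and 3.75 CPM, against 5.65, 7.64, 6.95 and 6.61 CPM in Control. Library 2 of 72 h held no count of Tfb1m among the 5376491 counts kept, which allows up to 3 counts, or 0.613 CPM, by counting error alone. With this spread no change was detectable (adjusted p from 0.358 to 0.989 over the 4 times).

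Ssbp1, the single-strand binding protein, was the factor that rose most. It measured 27.7, 23.2, 23.7 and 23.1 CPM in Control and 17.7, 17.99, 20.1 and 19.3 CPM at 6 h, where all libraries lay below Control without passing the test. From 24 h on the order was turned around. Values were 53.0, 56.4, 51.7 and 45.0 CPM at 24 h, 64.2, 99.4, 59.1 and 93.6 CPM at 48 h and 89.6, 46.2, 73.8 and 72.7 CPM at 72 h. Ssbp1 rose 2.11-fold at 24 h (log2 fold change 1.08 ± 0.19, adjusted p = 7.91e-05), 3.23-fold at 48 h (log2 fold change 1.69 ± 0.19, adjusted p = 1.49e-07) and 2.89-fold at 72 h (log2 fold change 1.53 ± 0.19, adjusted p = 5.81e-07). The rise from 24 to 48 h was also called (log2 fold change 0.62 ± 0.19, adjusted p = 0.0231), and was lost in 5 of 8 fits without 1 library (libraries 1, 3 and 4 of 24 h, libraries 2 and 4 of 48 h, with log2 fold changes of 0.47 to 0.63 and adjusted p of 0.0525 to 0.0950).

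The 2 DNA-binding regulators of these genes parted. Gabpa measured 46.4, 52.3, 49.4 and 58.1 CPM in Control and 24.6, 26.4, 25.5 and 26.6 CPM at 24 h, and every injured library lay below Control. It fell at 24 h (log2 fold change -1.001 ± 0.27, adjusted p = 0.00445), 48 h (log2 fold change -0.93 ± 0.27, adjusted p = 0.00604) and 72 h (log2 fold change -1.07 ± 0.27, adjusted p = 0.00219). Nrf1 measured 19.0, 24.5, 23.1 and 20.7 CPM in Control, 39.9, 31.7, 35.2 and 31.0 CPM at 48 h and 60.2, 52.5, 16.4 and 35.6 CPM at 72 h. The 48 h libraries lay above Control, and library 3 of 72 h lay below it. Nrf1 rose at 48 h (log2 fold change 0.66 ± 0.26, adjusted p = 0.0386) and 72 h (log2 fold change 0.92 ± 0.27, adjusted p = 0.00543). The call at 48 h was lost in 7 of 8 fits without 1 library (all but library 4 of 48 h), with log2 fold changes of 0.56 to 0.71 and adjusted p of 0.0524 to 0.105. Over the 7 factors, 1 fell at 6 h (beside 8.53% of all genes), and 3 fell and 1 rose at 24 h (beside 20.2% and 21.8%). At 48 h 3 fell and 2 rose (beside 26.8% and 26.9%), as at 72 h (beside 29.6% and 26.7%).

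**Figure D2:**
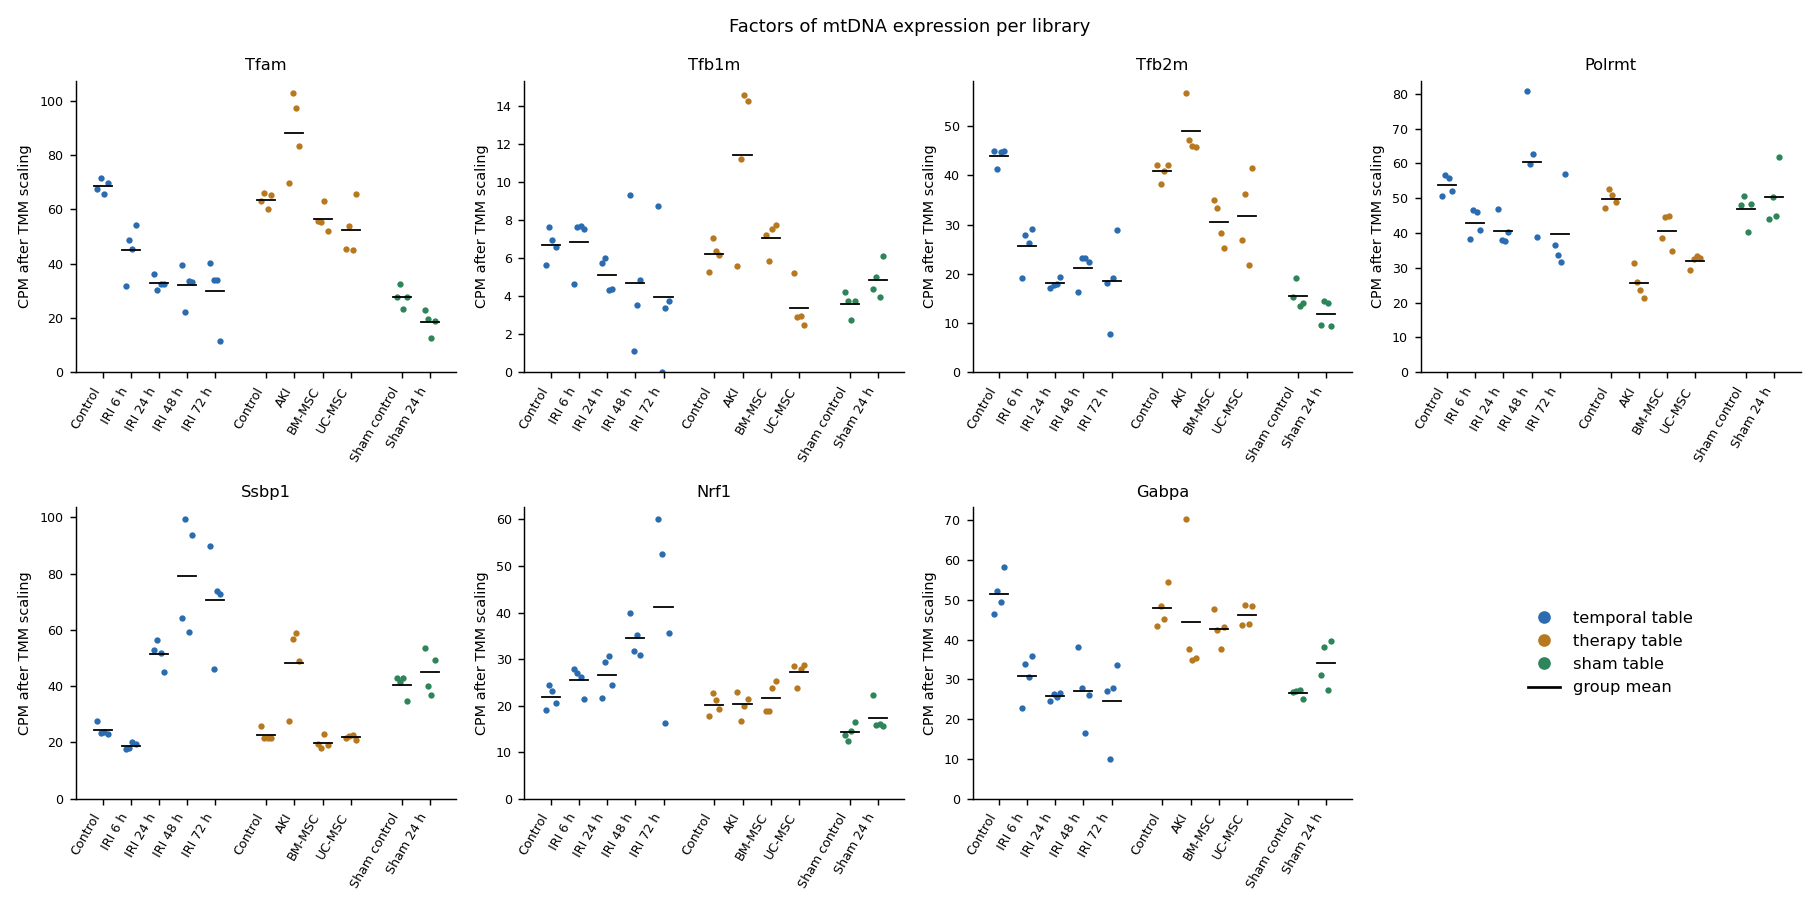
CPM after TMM scaling of the 7 factors in every library (points, coloured by table), with the group mean as a bar. In the temporal table Tfam, Tfb2m and Gabpa lie below Control at all 4 times, whereas Ssbp1 moves from 17.7 to 20.1 CPM at 6 h to 59.1 to 99.4 CPM at 48 h.

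From 24 to 48 h, 2 of the 10 genes rose (Polrmt and Ssbp1) and 1 fell (Ppargc1b), beside 9.01% and 12.1% of all genes. Library 2 of 48 h held the highest Ppargc1a of that time (30.8 CPM), and without it Ppargc1a was called lower at 48 h than at 24 h (log2 fold change -0.76, adjusted p = 0.0101), which it was not with all libraries (log2 fold change -0.37 ± 0.24, adjusted p = 0.298). From 24 to 72 h no member rose (0 of 10, beside 12.4% of all genes, while Nrf1 and Ssbp1 had an unadjusted p of 0.0257 and 0.0262) and Ppargc1a fell (log2 fold change -0.72 ± 0.24, adjusted p = 0.0257), beside 18.3% of all genes. By DESeq2, 2 members rose and none fell. The Ppargc1a call was lost without library 1 or 3 of 24 h or library 1 of 72 h (log2 fold change -0.71 to -0.57, adjusted p 0.0544 to 0.0836).

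**Figure D3:**
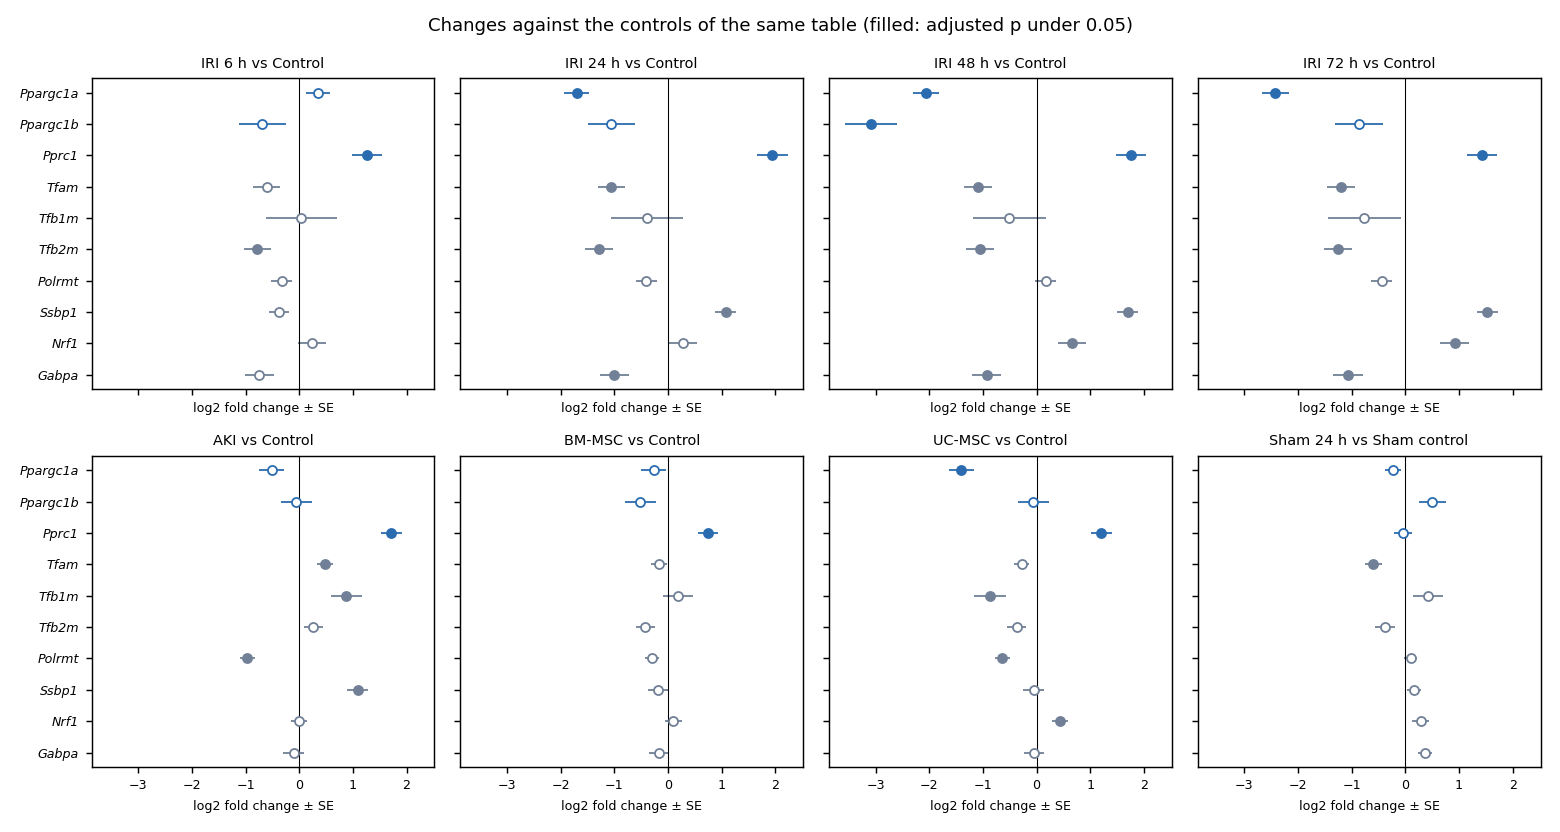
Log2 fold changes with their standard error (horizontal bars) of the 10 genes against the controls of the same table, coactivators in blue and factors in grey, filled where the adjusted p was under 0.05. Pprc1 is filled and to the right in all 7 comparisons with injury and near 0 after sham surgery (-0.04).

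The balance among the coactivators was read within each library as the log2 ratio of CPM values (prior count 2), which no scaling between libraries enters apart from the prior count. In Control, Pprc1 over Ppargc1a was -2.71, -2.60, -2.36 and -2.41, so Ppargc1a exceeded Pprc1 in all 4 libraries. At 24 h it was 1.02, 1.38, 0.84 and 1.18, and Pprc1 exceeded Ppargc1a in every library. Values were 1.86, 0.18, 2.22 and 0.92 at 48 h and 2.18, -0.10, 1.61 and 1.13 at 72 h, so 1 library of 72 h (library 2) fell just short of 0. The mean change from Control was 0.91 at 6 h, 3.63 at 24 h, 3.81 at 48 h and 3.73 at 72 h. Among therapy groups it was 2.28 in AKI, 0.99 in BM-MSC and 2.63 in UC-MSC. In all 7 injured groups the 4 libraries lay above the 4 Control libraries (exact permutation test, two-sided, p = 0.0286, the smallest that 4 against 4 allows, adjusted p = 0.0381 over 24 ratio comparisons). After sham surgery the change was 0.20, with overlapping ranges (exact permutation p = 0.514, adjusted p = 0.514). The 7 comparisons share the 4 Control libraries, so they are not 7 independent results.

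Pprc1 over Ppargc1b was likewise above Control in all 7 injured groups, by 1.91 at 6 h, 3.06 at 24 h, 4.55 at 48 h, 2.15 at 72 h, 1.77 in AKI, 1.19 in BM-MSC and 1.35 in UC-MSC (each exact permutation p = 0.0286, adjusted p = 0.0381). The ratio of the 2 closest homologues, Ppargc1b over Ppargc1a, had no such common direction. It was below Control at 6 h (-1.004), above it at 72 h (1.58) and in UC-MSC (1.28), and above Sham control at Sham 24 h (0.80), each without overlap (exact permutation p = 0.0286, adjusted p = 0.0381). In the other 4 comparisons it overlapped, with adjusted p from 0.0722 (AKI) to 0.447 (BM-MSC).

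**Figure D4:**
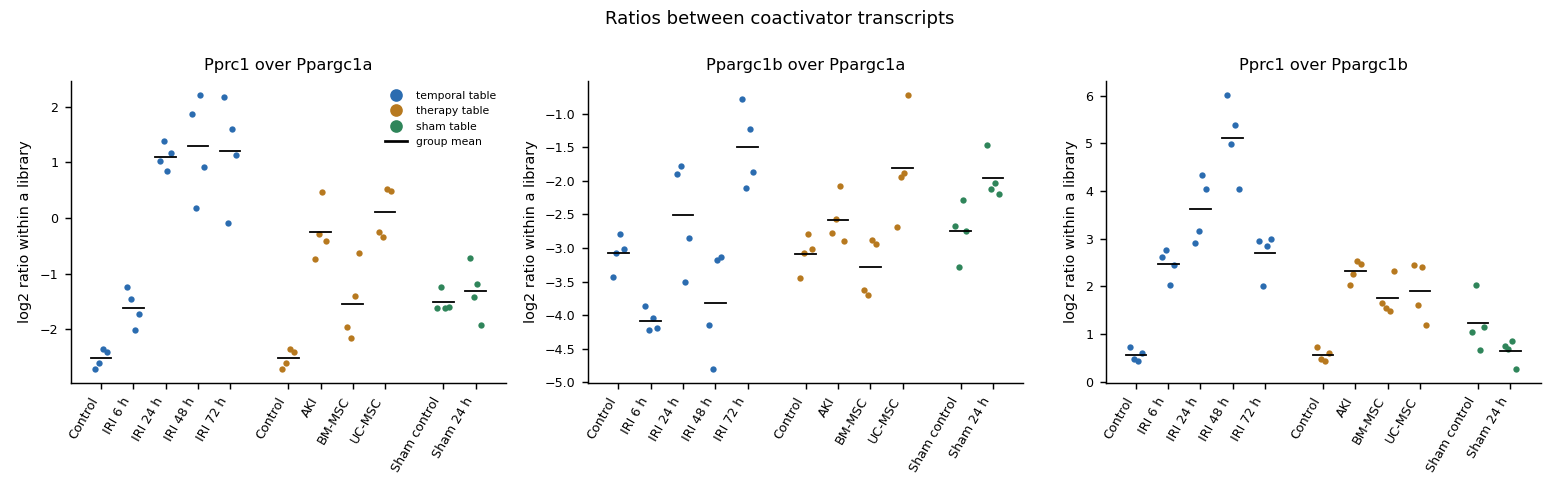
Log2 ratios between coactivator transcripts within each library (points, coloured by table) with the group mean as a bar. Pprc1 over Ppargc1a has its mean at -2.52 in Control and at 1.10 to 1.29 from 24 to 72 h, above every Control library.

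Set against the mean log2 level of the 7 factors in the same library, the coactivators parted in the same way. Ppargc1a was 1.26 above the factors in Control, 1.97 above at 6 h, and at -0.04, -0.67 and -0.64 relative to them at 24, 48 and 72 h. The decline of Ppargc1a was thus larger than that of the mean of the factors. Pprc1 went from -1.26 in Control to 0.36 at 6 h and 1.07, 0.62 and 0.56 at the later times. Ppargc1b went from -1.82 in Control to -4.49 at 48 h, and was at -2.11, -2.55 and -2.14 at 6, 24 and 72 h. These are descriptions without a test, and the factors themselves moved both ways.

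After surgery without ischaemia, 1 of the 10 genes passed the test. At Sham 24 h none rose (0 of 10, beside 7.71% of the 17755 genes tested) and 1 fell (beside 13.1%). The unadjusted p was under 0.05 for Gabpa (0.0131) among those with a higher mean, and DESeq2 called 1 member higher. Tfam measured 27.7, 32.5, 23.5 and 27.7 CPM in Sham control and 22.8, 19.5, 12.6 and 19.0 CPM at Sham 24 h, without overlap (log2 fold change -0.59 ± 0.17, adjusted p = 0.0174). The call was lost without library 2 of Sham control (-0.52, adjusted p = 0.0720). Pprc1 measured 14.2, 14.8, 12.4 and 11.8 CPM and 15.7, 11.7, 13.1 and 11.4 CPM, nearly the same ranges (log2 fold change -0.04 ± 0.17, adjusted p = 0.915). For Ppargc1a the libraries measured 44.0, 35.2, 37.9 and 35.9 CPM and 25.8, 31.7, 29.9 and 43.5 CPM, which overlapped (log2 fold change -0.23 ± 0.15, adjusted p = 0.318). Library 4 was the highest of Sham 24 h, and without it Ppargc1a was called lower (-0.40, adjusted p = 0.0370). Proximal tubule markers summed to 11778 to 15581 CPM in Sham control and 5582 to 7283 CPM at Sham 24 h, so they too were lower after surgery alone.

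The change at IRI 24 h against Control was then compared with the change at Sham 24 h against Sham control, as a difference of differences in 1 fit over both tables (18542 genes). Of the 10 genes, 2 rose beyond sham (beside 24.8% of all genes) and 5 fell beyond it (beside 20.1%), while the median of all genes was itself 0.12. All 3 coactivators passed, Pprc1 upward (log2 fold change 2.07 ± 0.18, adjusted p = 5.19e-09) and Ppargc1a (log2 fold change -1.37 ± 0.19, adjusted p = 2.61e-06) and Ppargc1b (log2 fold change -1.50 ± 0.41, adjusted p = 0.0049) downward. Among the factors Ssbp1 rose (log2 fold change 1.01 ± 0.17, adjusted p = 4.22e-05). Gabpa (log2 fold change -1.27 ± 0.16, adjusted p = 1.36e-06), Tfb2m (log2 fold change -0.81 ± 0.21, adjusted p = 0.00322) and Polrmt (log2 fold change -0.42 ± 0.16, adjusted p = 0.0392) fell. Tfam, which was lower in both arms, did not pass (log2 fold change -0.37 ± 0.20, adjusted p = 0.13). The Polrmt call was lost in 10 of 16 fits without 1 library (libraries 2 to 4 of Control and of IRI 24 h, 1 and 3 of Sham control, and 2 and 4 of Sham 24 h), with values of -0.43 to -0.30 and adjusted p of 0.0504 to 0.102. The 2 tables were deposited separately, and what differs between them besides surgery is removed only as far as each table's own controls share it. Control and IRI 24 h lay in different parts of the temporal table. A difference between those parts stays in this comparison and cannot be told apart from ischaemia.

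In the therapy table, untreated injury (AKI) raised Pprc1 and several factors. Of the 10 genes 4 rose and 1 fell against Control, beside 19.9% and 15.0% of the 16618 genes tested. Pprc1 measured 10.9, 11.3, 13.4 and 12.8 CPM in Control and 43.9, 33.4, 44.7 and 36.8 CPM in AKI, a 3.29-fold rise (log2 fold change 1.72 ± 0.20, adjusted p = 1.94e-05). Ssbp1 measured 25.8, 21.5, 21.7 and 21.6 CPM in Control and 27.6, 56.8, 58.9 and 49.0 CPM in AKI (log2 fold change 1.09 ± 0.19, adjusted p = 5.05e-04). Library 1 of AKI was the lowest in Ssbp1, close to the highest Control library. Tfam rose as well, from 63.0, 66.1, 60.1 and 65.2 CPM to 69.9, 103, 97.4 and 83.4 CPM (log2 fold change 0.47 ± 0.15, adjusted p = 0.0195), a call lost without library 3 of Control or library 2 or 3 of AKI (0.39 to 0.44, adjusted p 0.0587 to 0.0718). Tfb1m (log2 fold change 0.88 ± 0.29, adjusted p = 0.0271) was called although library 1 of AKI (5.61 CPM) lay within the Control range, and lost the call in 5 of 8 fits without 1 library (libraries 1, 3 and 4 of Control, 3 and 4 of AKI, 0.73 to 0.88, adjusted p 0.0596 to 0.0829). Polrmt went the other way, from 47.3, 52.5, 51.0 and 48.8 CPM to 31.3, 25.9, 23.7 and 21.4 CPM (log2 fold change -0.97 ± 0.13, adjusted p = 9.16e-05).

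Ppargc1a in AKI depended on 1 library. It measured 72.3, 69.4, 69.4 and 68.5 CPM in Control and 73.1, 41.1, 32.4 and 49.3 CPM in AKI, where library 1 lay above every Control library and the other three below (log2 fold change -0.51 ± 0.23, adjusted p = 0.0911). Without that library Ppargc1a was called lower (-0.80, adjusted p = 0.00443). The same library stood apart in other members, with the highest Gabpa (70.2 CPM against 34.7 to 37.7 CPM) and the lowest Ssbp1 and Tfb1m of its group. Proximal tubule markers of the AKI libraries summed to 8101 to 17339 CPM. The 5 endothelial markers tested summed to 47.0 to 210.5 CPM in AKI, against 258 to 271 CPM in Control. The share of mitochondrial ribosomal RNA among the counts kept was 0.946 to 2.40% in AKI, against 0.180 to 0.220% in Control, 0.153 to 0.264% in BM-MSC and 0.251 to 0.452% in UC-MSC. The part of these differences in the comparisons with AKI was not tested.

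In kidneys that received BM-MSC, 1 of the 10 genes rose against Control (beside 6.56% of all genes) and none fell (0 of 10, beside 2.36%). The unadjusted p was under 0.05 for Tfb2m (0.0297) and Polrmt (0.0420), both lower, and DESeq2 called 0 members lower. Ppargc1b, at 5.12 to 6.48 CPM, lay below every Control library (6.52 to 9.89 CPM) without passing the test (log2 fold change -0.51 ± 0.29, adjusted p = 0.297). A fit of these 2 groups alone called 3 members lower, Ppargc1b among them (-0.54, adjusted p = 0.0334). The share of all genes in that smaller fit is not given here. The riser was Pprc1, at 17.6, 15.1, 18.4 and 29.9 CPM (log2 fold change 0.75 ± 0.19, adjusted p = 0.0243). Its libraries lay above Control, but the call was lost in 5 of 8 fits without 1 library (each of the 4 Control libraries and library 4 of BM-MSC, 0.50 to 0.80, adjusted p 0.0538 to 0.105). Ppargc1a measured 69.4, 68.1, 48.7 and 46.1 CPM, with libraries 1 and 2 close to the lowest Control library and libraries 3 and 4 below it (log2 fold change -0.27 ± 0.23, adjusted p = 0.512). A gene that misses the threshold is not shown to be unchanged.

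UC-MSC kidneys differed more from Control. Here 2 of the 10 genes rose (beside 20.4% of all genes) and 3 fell (beside 16.7%). Ppargc1a measured 33.8, 29.7, 19.2 and 22.7 CPM and fell 2.65-fold (log2 fold change -1.41 ± 0.23, adjusted p = 3.37e-04). Libraries 2 to 4 lay below every library of Control, AKI and BM-MSC. Pprc1 measured 28.4, 23.5, 27.7 and 31.6 CPM and rose (log2 fold change 1.202 ± 0.19, adjusted p = 2.75e-04). Polrmt fell, at 29.4, 32.6, 33.4 and 32.7 CPM (log2 fold change -0.64 ± 0.13, adjusted p = 0.00181). Tfb1m fell (log2 fold change -0.87 ± 0.30, adjusted p = 0.03) and Nrf1 rose (log2 fold change 0.43 ± 0.15, adjusted p = 0.0333), each lost in 6 of 8 fits without 1 library. For Tfb1m these left out libraries 2 to 4 of either group (-0.87 to -0.76, adjusted p 0.0555 to 0.0795), and for Nrf1 libraries 1, 3 and 4 of either group (0.37 to 0.45, adjusted p 0.0597 to 0.101). Proximal tubule markers summed to 3196 to 12860 CPM in UC-MSC and 6157 to 15611 CPM in BM-MSC, against 19952 to 23497 CPM in Control. Thick ascending limb and distal markers summed to 776 to 1865 CPM in UC-MSC and 5333 to 5806 CPM in Control. The 4 neutrophil markers tested summed to 49.1 to 524 CPM in UC-MSC, 12.6 to 338 CPM in BM-MSC and 2.71 to 4.69 CPM in Control, and macrophage markers to 351 to 660.1 CPM in UC-MSC and 211 to 229.7 CPM in Control. Their part in the changes was not tested.

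The study's title names activation of PGC1alpha, and the comparison with untreated AKI bears on its transcript. Ppargc1a was not called higher with either cell source. BM-MSC gave log2 fold change 0.25 ± 0.23, adjusted p = 0.428, and UC-MSC kidneys had less Ppargc1a than AKI (log2 fold change -0.89 ± 0.23, adjusted p = 0.00635) and less than BM-MSC (log2 fold change -1.14 ± 0.23, adjusted p = 0.00391). Without library 1 of AKI, Ppargc1a was called higher in BM-MSC (0.51, adjusted p = 0.0487). With the IRI 6 h libraries in place of AKI, it was called lower in BM-MSC (-0.71, adjusted p = 0.0458). The direction of Ppargc1a with BM-MSC thus rested on which untreated libraries it was set against. AKI lay in a different part of the therapy table from BM-MSC and UC-MSC, whose time of collection the labels do not give. In the comparisons with AKI, the group cannot be told apart from the part, nor from the time if that differed. Transcript levels do not measure the activity of the protein.

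Of the 10 genes, 1 rose and 4 fell in BM-MSC against AKI (beside 16.3% and 17.1% of all genes), and 1 rose and 6 fell in UC-MSC (beside 20.3% and 20.1%). Ssbp1 fell with both, to 19.3, 18.1, 23.0 and 19.0 CPM in BM-MSC (log2 fold change -1.28 ± 0.19, adjusted p = 1.75e-04) and 21.7, 22.1, 22.4 and 20.8 CPM in UC-MSC (log2 fold change -1.14 ± 0.19, adjusted p = 2.71e-04), ranges that overlapped Control. Tfam fell with both (log2 fold change -0.64 ± 0.15, adjusted p = 0.00355 and log2 fold change -0.75 ± 0.15, adjusted p = 9.24e-04), and so did Tfb2m (log2 fold change -0.68 ± 0.18, adjusted p = 0.00797 and log2 fold change -0.63 ± 0.18, adjusted p = 0.0102), whose call in BM-MSC was lost with total-count scaling (-0.42, adjusted p = 0.0519). Pprc1 fell in BM-MSC (log2 fold change -0.97 ± 0.19, adjusted p = 0.00135) and in UC-MSC (log2 fold change -0.51 ± 0.19, adjusted p = 0.0412). The latter call was lost in 5 of 8 fits without 1 library (libraries 3 and 4 of AKI, 1 to 3 of UC-MSC, -0.55 to -0.43, adjusted p 0.0537 to 0.121). Polrmt rose in BM-MSC (log2 fold change 0.67 ± 0.13, adjusted p = 0.00146). In UC-MSC Tfb1m fell, at 5.20, 2.89, 2.95 and 2.50 CPM against 5.61, 11.2, 14.6 and 14.3 CPM in AKI (log2 fold change -1.75 ± 0.30, adjusted p = 3.42e-04). Nrf1 rose in UC-MSC (log2 fold change 0.43 ± 0.15, adjusted p = 0.0314), a call lost in 5 of 8 fits without 1 library (libraries 2 and 3 of AKI, 1, 3 and 4 of UC-MSC, 0.35 to 0.43, adjusted p 0.0537 to 0.0928).

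The cell sources were compared directly as well. None of the 10 genes was higher in UC-MSC than in BM-MSC (0 of 10, beside 10.0% of all genes), with Pprc1 (0.0293) and Nrf1 (0.0432) at an unadjusted p under 0.05, and 2 were lower (beside 10.4%), Ppargc1a and Tfb1m (log2 fold change -1.06 ± 0.29, adjusted p = 0.0195). DESeq2 called 0 members higher. The Tfb1m call was lost without library 2 or 3 of UC-MSC (-0.99 in both, adjusted p 0.0587 and 0.0613). Without library 4 of BM-MSC, whose Pprc1 was the highest of its group, Pprc1 was called higher in UC-MSC (0.70, adjusted p = 0.00740).

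**Figure D5:**
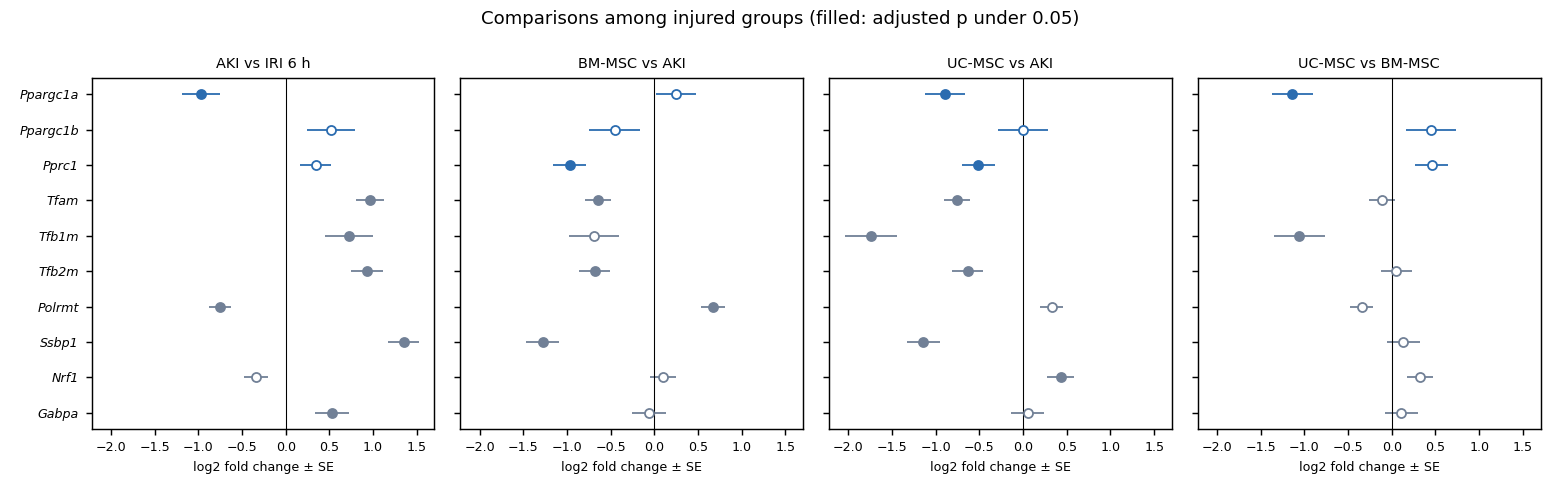
Log2 fold changes with their standard error (horizontal bars) of the 10 genes between injured groups, coactivators in blue and factors in grey, filled where the adjusted p was under 0.05. Ppargc1a is left of 0 and filled in AKI against IRI 6 h (-0.97), UC-MSC against AKI (-0.89) and UC-MSC against BM-MSC (-1.14), and Ssbp1 is right of 0 in AKI against IRI 6 h (1.35) and left of 0 in both comparisons with AKI.

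The AKI and IRI 6 h libraries bear the same time and treatment in their labels, and the 10 genes differed between them. In a fit of both groups with Control, BM-MSC and UC-MSC (16814 genes), a comparison added after the data were seen, 5 members were higher in AKI (beside 16.8% of all genes) and 2 were lower (beside 17.6%). Ssbp1 (log2 fold change 1.35 ± 0.18, adjusted p = 1.83e-05), Tfam (log2 fold change 0.97 ± 0.16, adjusted p = 2.02e-04) and Tfb2m (log2 fold change 0.93 ± 0.18, adjusted p = 8.05e-04) were higher in AKI, and Ppargc1a (log2 fold change -0.97 ± 0.22, adjusted p = 0.00246) and Polrmt (log2 fold change -0.75 ± 0.13, adjusted p = 2.61e-04) were lower. Tfb1m (log2 fold change 0.73 ± 0.28, adjusted p = 0.0487) and Gabpa (log2 fold change 0.53 ± 0.20, adjusted p = 0.0437) were also called higher. The first was lost in 7 of 8 fits without 1 library (all but library 1 of AKI, 0.57 to 0.77, adjusted p 0.0672 to 0.145). The second was lost without library 1 of AKI or library 1, 2 or 3 of IRI 6 h (0.21 to 0.57, adjusted p 0.0597 to 0.228). Pprc1 did not pass (log2 fold change 0.34 ± 0.18, adjusted p = 0.142). The 8 fibroblast markers summed to 270 to 412 CPM in AKI, 480 to 579 CPM in Control and 1788 to 3421 CPM in BM-MSC of the therapy table. In the temporal table, scaled separately, they summed to 2063 to 2449 CPM at 6 h and 524 to 618 CPM in Control. Of the 12 calls against AKI (5 in BM-MSC and 7 in UC-MSC), 2 kept their call with IRI 6 h in place of AKI, 3 lost it and 7 changed sign. The comparisons with AKI therefore hold for these AKI libraries only, and the part of library handling in the difference was not tested.

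Other genes of the pathway were read from lists chosen with earlier results of these data known. Among 26 partners and upstream regulators of the coactivators, 1 rose and 9 fell at 6 h (beside 10.3% and 8.53% of all genes), 3 and 14 at 24 h (21.8% and 20.2%), 3 and 15 at 48 h (26.9% and 26.8%), and 3 and 16 at 72 h (26.7% and 29.6%). The medians were -0.43, -0.60, -0.73 and -0.73. The nuclear receptors that PGC1alpha coactivates were among those that fell. Esrrg, encoding the oestrogen-related receptor gamma, fell at 24 h (log2 fold change -2.26 ± 0.34, adjusted p = 9.10e-06) and 72 h (log2 fold change -2.31 ± 0.34, adjusted p = 5.29e-06). Ppara, the receptor that drives fatty acid oxidation, fell at 24 h (log2 fold change -3.62 ± 0.60, adjusted p = 3.18e-05), as did Hnf4a, a tubular and hepatic nuclear receptor (log2 fold change -2.49 ± 0.30, adjusted p = 4.41e-07). Esrra, a partner in induction of respiratory genes, fell less (log2 fold change -0.64 ± 0.14, adjusted p = 7.07e-04). Myc, a growth regulator that also acts on mitochondrial genes, rose at every time, as at 24 h (log2 fold change 3.28 ± 0.28, adjusted p = 3.37e-09). Beyond sham at 24 h, 5 of the 26 rose and 12 fell (beside 24.8% and 20.1% of all genes), with Ppara at log2 fold change -3.28 ± 0.34, adjusted p = 5.26e-08 and Esrrg at log2 fold change -2.07 ± 0.19, adjusted p = 9.18e-09. In UC-MSC against Control 3 rose and 6 fell (beside 20.4% and 16.7%), with Esrra (log2 fold change -1.15 ± 0.18, adjusted p = 2.21e-04) and Esrrg (log2 fold change -0.91 ± 0.18, adjusted p = 0.00145) lower and Myc higher (log2 fold change 3.65 ± 0.35, adjusted p = 6.77e-06).

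Of 12 genes of mtDNA replication and maintenance, 0 rose and 2 fell at 6 h (beside 10.3% and 8.53% of all genes). At 24 h 0 rose and 1 fell (beside 21.8% and 20.2%). At 48 h 3 rose and 3 fell (beside 26.9% and 26.8%), and at 72 h 1 rose and 3 fell (beside 26.7% and 29.6%). Polg, the catalytic subunit of the mtDNA polymerase, rose at 48 h (log2 fold change 0.65 ± 0.16, adjusted p = 0.00164) and 72 h (log2 fold change 0.57 ± 0.16, adjusted p = 0.0046). Twnk, the mtDNA helicase, was not called at any time against Control. Rrm2b, which supplies nucleotides for mtDNA in resting cells, fell at 24 h (log2 fold change -1.53 ± 0.30, adjusted p = 2.51e-04). In UC-MSC 6 of the 12 fell against Control (beside 16.7% of all genes) and none rose (beside 20.4%). Among those that fell were Twnk (log2 fold change -0.61 ± 0.14, adjusted p = 0.0038) and Mgme1, a mitochondrial exonuclease (log2 fold change -0.92 ± 0.21, adjusted p = 0.00311).

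Among 22 genes of mitochondrial transcription and RNA handling, 0 rose and 2 fell at 6 h (beside 10.3% and 8.53% of all genes), 4 and 5 at 24 h (21.8% and 20.2%), 4 and 6 at 48 h (26.9% and 26.8%), and 4 and 8 at 72 h (26.7% and 29.6%). Lrpprc, which stabilises mitochondrial mRNA, fell at 24 h (log2 fold change -1.31 ± 0.20, adjusted p = 1.13e-05) and 72 h (log2 fold change -2.06 ± 0.21, adjusted p = 1.58e-08), and Lonp1, the matrix protease that degrades TFAM, fell at 48 h (log2 fold change -0.73 ± 0.17, adjusted p = 0.00103). In AKI 10 of these genes rose against Control (beside 19.9%) and none fell, with Slirp, the partner of LRPPRC (log2 fold change 1.94 ± 0.31, adjusted p = 2.87e-04), and Mtpap, the mitochondrial poly(A) polymerase (log2 fold change 1.04 ± 0.15, adjusted p = 1.45e-04), among them. Against AKI, 13 fell in BM-MSC (beside 17.1%) and 17 in UC-MSC (beside 20.1%), with medians of -0.86 and -0.99. None rose in either (beside 16.3% and 20.3%). Against Control, 2 fell in BM-MSC (beside 2.36%, median -0.24) and 11 in UC-MSC (beside 16.7%, median -0.46), and none rose (beside 6.56% and 20.4%). AKI was higher than IRI 6 h in 15 of them (beside 16.8%) and lower in none (beside 17.6%). The comparisons of BM-MSC, UC-MSC and IRI 6 h with AKI share the AKI libraries.

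The mtDNA-encoded mRNAs are what the 7 factors serve. Of 13, 9 had Control counts that differed between the temporal and therapy tables and were left out there, so 4 were tested. None of the 4 was called at 6 h, when 10.3% of all genes rose and 8.53% fell. At each later time 3 rose, beside 21.8% of all genes at 24 h, 26.9% at 48 h and 26.7% at 72 h. At 48 and at 72 h 1 fell, beside 26.8% and 29.6%, and at 24 h none, beside 20.2%. The genes named next were chosen after their values were seen. The mRNA encoded on the light strand, mt-Nd6, rose at 72 h (log2 fold change 2.27 ± 0.20, adjusted p = 3.08e-09), and mt-Co2 rose at 24 h (log2 fold change 2.71 ± 0.63, adjusted p = 0.00133), times at which Ppargc1a, Tfam and Tfb2m were lower. In the sham table all 13 were tested and 8 rose at Sham 24 h (beside 7.71% of all genes), such as mt-Co1 (log2 fold change 0.69 ± 0.13, adjusted p = 8.86e-04). Summed mitochondrial mRNA took 29.3 to 35.8% of counts in Sham control and 43.1 to 51.2% at Sham 24 h. Counting without strand or by multiple alignment could move reads among mitochondrial genes and their nuclear copies, and the sources used here do not give how counting treated them.

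Pearson r of log2 CPM was ranked among 10205 genes whose log2 CPM averaged 3 or more. Predicted names were left out before ranking (Gm with digits, digits then Rik, or letters with digits, a point and digits). Over the 20 temporal libraries, Ppargc1a was followed most closely by Dag1 (Pearson r = 0.96), Hadha (0.96), Slc31a1 (0.96), Gspt1 (0.96) and Hnrnpul1 (0.96). Those most opposed were Dus3l (-0.99), Rgs11 (-0.97) and Metap1d (-0.97). In the 16 therapy libraries the same genes had r of 0.04, -0.53, 0.86, 0.13 and -0.31, and of 0.21, 0.18 and 0.29, so only Slc31a1, a copper transporter, kept a like pattern in both tables. Pprc1 was followed most closely by Ypel2 (0.94), Snrpd1 (0.92), Rad9a (0.92), the immediate early gene Ier2 (0.91) and Plekho1 (0.90), and opposed by Mpc2 (-0.93), Acbd5 (-0.92) and Dnajc12 (-0.92). In therapy libraries these had r of 0.61, 0.75, 0.50, 0.69 and 0.81, and of -0.36, -0.06 and -0.62. Among the members, Ssbp1 was opposed to Ppargc1a in the temporal table (-0.91) and much less in the therapy table (-0.15), and Nrf1 had r of -0.58 and -0.63 with it. For Tfam r was 0.59 and 0.13, for Tfb2m 0.62 and 0.40, and for Gabpa 0.56 and 0.29. Polrmt was opposed to Pprc1 in the therapy table (-0.91) and not in the temporal table (-0.07). These correlations describe libraries that fall into groups and share depth and composition, and carry no test. Ppargc1a was high in Control and at 6 h and low from 24 h on, which is also how the temporal table was joined. A correlation with Ppargc1a there cannot be told apart from the part.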

How the data were processed

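Bulk RNA was measured in 40 samples of mouse kidney in 10 groups of 4, which fill 44 columns because Control is in 2 tables. The authors deposited raw read counts per gene. The submitters' processing notes name HTSeq, DESeq2 and the mm39 (GRCm39) build. The aligner, the annotation release and the strand setting are not given in the sources used here. Libraries were Illumina RNA-seq, per the labels' protocols.

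Columns were matched to samples by name. The controls of the sham table bear the names of the Control libraries but hold other counts, so they were taken as Sham control without sample numbers. The treatment label of Sham 24 h reads as injury, whereas its other labels give surgery without it, and the latter was used. The 78 names on several lines were left out, and so were 74 names whose Control counts differed between the temporal and therapy tables.

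Counts were filtered (filterByExpr), scaled (TMM) and tested in edgeR 4.0.16 (R 4.3.3) by quasi-likelihood, all groups of a table in 1 fit, with Benjamini-Hochberg adjustment and a threshold of 0.05. The scripts were tested on simulated data. Alternatives used DESeq2 1.42.0, other scaling, no filter, only the groups compared, a replicate block, and each library left out. Ratios used exact permutation tests. The limit given for a count of 0 covers counting error only.

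The 10 genes and the lists were chosen with earlier results of these data known. Named besides the 10 were up to 3 called genes with the largest change per list and comparison, 7 fixed genes (Esrra, Esrrg, Ppara, Myc, Polg, Twnk and Lonp1), and the 5 most like and 3 most opposed genes for Ppargc1a and for Pprc1.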

Additional observations from a re-analysis of the deposited data

Results flagged for a closer look

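A single library stood apart from the others of its group in 9 of 100 groups of 4 values. Its gap to the nearest library exceeded Dixon's 95% limit for the group's range. Independent normal values pass that limit about 1 time in 20, but these values come from 10 genes in the same 40 libraries. The 9 are therefore not read as an excess. The low ones were Ppargc1a at IRI 72 h (9.16 CPM), Tfb1m at IRI 6 h (4.63 CPM), Tfb2m in Control (41.4 CPM) and Tfb2m at IRI 48 h (16.4 CPM). The high ones were Ssbp1 in Control (27.7 CPM), Tfb1m in UC-MSC (5.20 CPM), Tfb2m in AKI (56.7 CPM), Gabpa in AKI (70.2 CPM) and Nrf1 at Sham 24 h (22.2 CPM). Those of AKI were both library 1.

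The change at 24 h after ischaemia differed from that after sham surgery, by a test of the difference itself (edgeR), for 7 of the 10 genes. Of all genes, 24.8% rose and 20.1% fell beyond sham. Control and IRI 24 h lay in different parts of the temporal table, which this test cannot tell apart from ischaemia. The Polrmt call was lost in 10 of 16 fits without 1 library. The log2 differences were 2.07 for Pprc1, 1.01 for Ssbp1, -1.37 for Ppargc1a, -1.50 for Ppargc1b, -1.27 for Gabpa, -0.81 for Tfb2m and -0.42 for Polrmt.

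AKI and IRI 6 h libraries, which the labels give the same time and treatment, differed directly in 7 of the 10 genes. Of all genes, 16.8% were higher and 17.6% lower in AKI. The call was lost in 7 of 8 fits without 1 library for Tfb1m and in 4 of 8 for Gabpa. The log2 differences, AKI over IRI 6 h, were 1.35 for Ssbp1, 0.97 for Tfam, 0.93 for Tfb2m, 0.73 for Tfb1m, 0.53 for Gabpa, -0.97 for Ppargc1a and -0.75 for Polrmt.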

How the results depend on the processing

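Without 1 library, 504 of 592 repeats of a called change kept their call, 88 lost it and none changed sign. Called changes kept were 66 of 67 by DESeq2, 66 of 67 with DESeq2 size factors, 58 of 67 with total counts, 55 of 67 without a filter, 50 of 59 with 2 groups only and 58 of 59 with disagreeing names kept, and none changed sign in these settings. The replicate numbers did not pair the libraries, since same-numbered deviations had a median correlation of 0.0027 in the temporal table and -0.026 in the therapy table. All ratios kept direction and side of the threshold under the other prior count. All kept direction under the median and with each library left out, settings in which no test was made. With a library left out, the smallest p that the exact permutation test allows lies above the threshold, so the calls could not be checked there. Scaling to total counts moved the median of all genes by more than 0.1 (log2) in most comparisons, most in BM-MSC against AKI (0.001 to 0.272, with the share of calls that were higher going from 48.8% to 73.6%). That share went from 54.8% to 71.1% at 6 h, from 57.0% to 42.2% in AKI and from 37.0% to 23.4% after sham surgery, and in AKI against IRI 6 h from 48.8% to 30.5%, in UC-MSC against AKI from 50.2% to 60.9%, against BM-MSC from 49.0% to 33.7%, and from 24 to 72 h from 40.4% to 29.9%. With DESeq2 size factors it went from 42.7% to 54.4% from 24 to 48 h and from 40.4% to 50.8% from 24 to 72 h. The cause of the shifts below was not tested. Shares of all genes called are not given for the settings below, so the counts show only how calls moved.

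At 6 h the count of members that rose was 3 with 2 groups only, and the count that fell was 2 by DESeq2, 0 with total counts, 0 without a filter, 6 with 2 groups only and 2 with disagreeing names kept (0 to 1 without 1 library). From 24 to 48 h the count that rose was 0 without a filter and 1 with 2 groups only (0 to 1 without 1 library), and that fell 0 with 2 groups only (1 to 2 without 1 library). From 24 to 72 h the count that rose was 2 by DESeq2 and 2 with its size factors (0 to 1 without 1 library), and that fell 0 by DESeq2, 0 with its size factors and 0 with 2 groups only (0 to 1 without 1 library).

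With the replicate number as a block, the count that rose from 24 to 48 h was 1, the count that fell in AKI against Control was 2, the count higher in AKI than IRI 6 h was 3, and 54 of 59 called changes kept their call. The block ended the calls of Polrmt from 24 to 48 h (adjusted p = 0.0667), and of Tfb1m in AKI (0.0530) and UC-MSC (0.0566) against Control and in AKI against IRI 6 h (0.0759, with Gabpa at 0.0706), by edgeR. The sham columns carry no sample numbers, so no block was fitted there.

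In AKI against Control the count that rose was 2 with total counts and 2 without a filter (2 to 4 without 1 library), and that fell 1 to 3 without 1 library. In BM-MSC against Control the count that fell was 3 with 2 groups only, and that rose 0 to 1 without 1 library. In UC-MSC against Control the count that rose was 1 with total counts and 1 without a filter (1 to 2 without 1 library). In UC-MSC against AKI the count that rose was 2 by DESeq2, 2 with total counts, 2 with disagreeing names kept, 0 without a filter and 0 with 2 groups only (0 to 3 without 1 library). In BM-MSC against AKI it was 1 to 2 without 1 library. In UC-MSC against BM-MSC, 0 to 1 rose and 1 to 3 fell without 1 library. After sham surgery the count that rose was 1 by DESeq2 and 1 with its size factors (0 to 1 without 1 library), and that fell 0 to 2. In AKI against IRI 6 h the count higher was 3 with total counts, 3 without a filter and 3 with 2 groups only (3 to 4 without 1 library).

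With IRI 6 h in place of AKI, 0 members rose and 1 fell in BM-MSC, and 3 fell in UC-MSC. Without the share of all genes in that fit, these counts do not show whether the members stood out. The log2 fold changes in BM-MSC were then -0.71 for Ppargc1a, 0.070 for Ppargc1b, 0.33 for Tfam, 0.26 for Tfb2m, -0.072 for Polrmt and 0.082 for Ssbp1, and in UC-MSC 0.52 for Ppargc1b, 0.22 for Tfam, 0.31 for Tfb2m and 0.22 for Ssbp1.

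Ppargc1b in UC-MSC against AKI, which was not called, was 0.00093 by DESeq2, 0.0056 with its size factors, 0.054 with total counts and 0.025 with disagreeing names kept, and -0.39 to 0.17 without 1 library. Without 1 library Ppargc1b was -0.046 to 0.44 from 24 to 72 h, -0.26 to 0.035 in AKI and -0.46 to 0.10 in UC-MSC against Control, and Pprc1 after sham surgery was -0.145 to 0.016. At 48 h, libraries of 5451914 to 7061129 counts held 5 to 8 counts of Ppargc1b, which limits its precision.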
